A study of Mus musculus with 20 samples.

Results

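The peaks described here are the autosomal pRb peaks of SS mutant mouse embryonic fibroblasts in 2 growth states, arrested and proliferating. All peaks of both deposited lists on chromosomes 1 to 19 were members, 617903 from the arrested and 104728 from the proliferating library. These 722631 peaks were part of 4480164 peaks in the 10 lists of the series, and the 2 lists held 756855 peaks when the sex chromosomes were counted. A peak was called kept when it shared at least 1 bp with a peak of the other growth state, and was otherwise called arrest-only or proliferation-only.

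The cells were C57BL/6 fibroblasts from E13.5 embryos, grown in 10% serum and harvested at passage 4, and were either wild type (WT) or of a genotype that the labels call SS without spelling it out. The arrested pRb libraries carry the growth condition confluence arrested, while the treatment text attached to the libraries of both growth states names 0.1% serum for 72 h. The proliferating pRb libraries are labelled as asynchronous. The labels list 5 antibodies for the pRb immunoprecipitation and do not say how they were combined. The other lists used for comparison were pRb in arrested and proliferating WT cells, Ezh2 in serum-deprived WT and SS cells, and H3K27me3 in serum-deprived and proliferating cells of both genotypes. With 1 library in each group, differences could not be set against a spread between replicates, and no test across samples was made. The labels do not say whether a library came from 1 embryo or a pool. A peak list holds no measure of expression, so the labelled cell type could not be checked against marker genes.

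pRb, the retinoblastoma protein, restrains entry into S phase by binding E2F transcription factors. In arrested cells it is hypophosphorylated and bound to E2F and to chromatin-modifying partners, and in cycling cells phosphorylation by cyclin-dependent kinases releases it from E2F during G1. Ezh2 is the catalytic subunit of Polycomb repressive complex 2, which deposits H3K27me3, a mark of silenced chromatin, and the series title ties the tumour suppressor to the silencing of endogenous retroelements.

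The arrested SS list was the larger and covered more of the genome. Its autosomal peaks numbered 5.90 times those of the proliferating list and covered 8.81 times the length, 134.8 Mb against 15.3 Mb. The arrested peaks lay at 257.2 per Mb and covered 5.61% of the 2402 Mb of autosomal sequence in the bins analysed, which are windows of 100 kb. The proliferating peaks lay at 43.6 per Mb and covered 0.637%. The median distance between neighbouring peak centres was 2718 bp in the arrested and 15066 bp in the proliferating list. In WT cells 401665 arrested peaks covered 75.9 Mb and 76548 proliferating peaks covered 11.3 Mb. The lists do not give the sequencing depth, and more reads can yield more peaks, so depth and growth state cannot be told apart in these ratios.

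Few peaks of either list were kept. Of the arrested peaks 10613 were kept and 607290 were arrest-only, a kept share of 1.72% over all arrested peaks tested (95% Wilson interval 1.69 to 1.75). Of the proliferating peaks 10658 were kept and 94070 were proliferation-only, a kept share of 10.2% (10.0 to 10.4). All intervals given here describe counting error alone and treat peaks as independent, which neighbours on a chromosome are not. In WT cells the kept shares were 1.19% of arrested and 6.26% of proliferating peaks. The higher kept share of proliferating SS peaks stood beside a higher coverage by the arrested list, 5.61% of the sequence in SS against 3.16% in WT cells, and the difference between genotypes was not tested.

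Kept peaks formed 10679 pairs. Of the kept arrested peaks 10547 had 1 proliferating partner and 66 had more, and 20 kept proliferating peaks had more than 1 arrested partner. The median pair shared 91 bp, which was a median of 63.9% of the proliferating peak. A proliferating peak lay wholly inside an arrested peak in 2417 cases, 22.6% of the pairs. In 566 pairs the overlap was 10 bp or less, and a further 506 proliferation-only peaks ended within 10 bp of an arrested peak, so the boundary between the classes runs through peaks that differ by a few bases. The shared sequence came to 0.974 Mb, which was 6.36% of the length of the proliferating list and 0.722% of that of the arrested list.

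The overlap was little above the level at which arrested peaks covered the neighbourhood. The centre of a proliferating SS peak lay inside an arrested SS peak in 6.24% of cases. When the centres were shifted along the chromosome by 5 to 20 kb in either direction, the share was 5.65% at the median of the shifts and ranged from 5.47% to 5.84%. The unshifted share was therefore 0.593 percentage points above the median, 1.11 times as high, and this difference amounts to 621 of the 104728 centres. It fell away over a short distance: at a shift of 100 bp the share was 6.05% on one side and 6.11% on the other, and at 300 bp it was 5.66% and 5.82%. In WT cells the centre value was 3.57%, the median of the shifted values 3.23%, and the ratio 1.10. Proliferation-only peaks had a median gap of 1234 bp to the nearest arrested peak, and 43.0% lay within 1 kb of one. Neighbouring arrested centres were themselves a median of 2718 bp apart, and these gaps were not set against those of other positions.

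**Figure D1:**
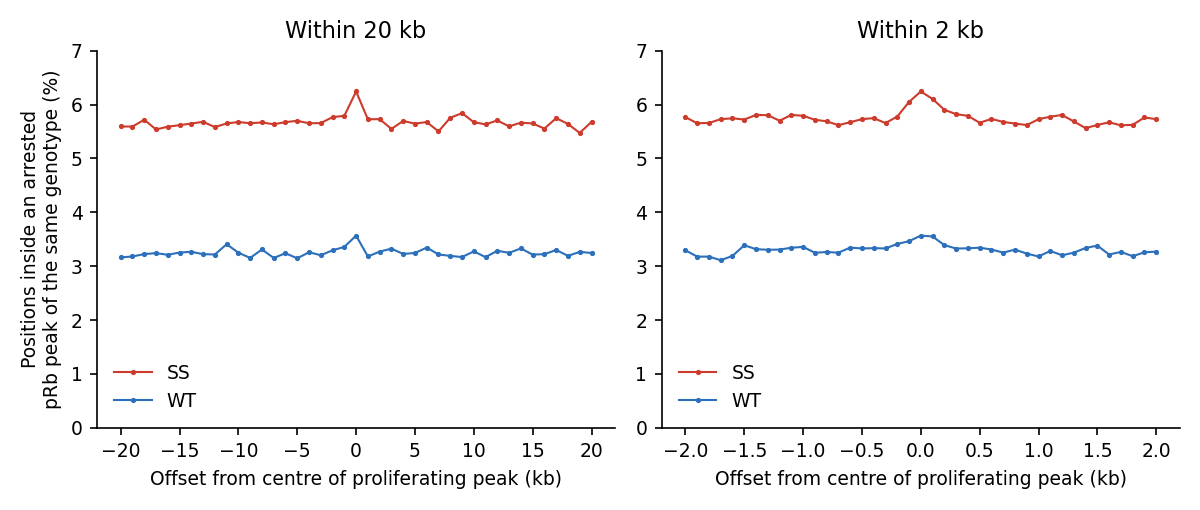
Share of positions (percent, vertical axes) inside an arrested pRb peak of the same genotype, against the offset from the centres of proliferating pRb peaks (kb, horizontal axes), within 20 kb (left) and 2 kb (right), for SS and WT cells. Each curve is highest near an offset of 0, at 6.24% in SS and 3.57% in WT, above medians of 5.65% and 3.23% at offsets of 5 kb or more.

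For scale, the same length-free measure was taken against every other list. The share of proliferating SS centres inside a list was divided by the share of the binned sequence that the list covered, giving a relative density of 1.11 for arrested SS pRb. It was 1.18 for arrested WT pRb, 1.51 for proliferating WT pRb, 1.12 and 1.13 for SS and WT Ezh2, and 1.07 to 1.14 for the 4 H3K27me3 lists. The value for the arrested SS pRb list, of the same target and genotype, thus lay among those of the Ezh2 and H3K27me3 lists. No test of these differences was possible. The arrested SS centres had a relative density of 1.10 in the proliferating SS list and of 1.08 to 1.15 in the other 8 lists.

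The peaks of both lists were short, and the arrested list held more long ones. Arrested peaks had a median length of 166 bp, a 90th percentile of 393 bp and a longest peak of 4839 bp. Their shortest length, 148 bp, was shared by 116926 peaks, 18.9% of the list, and 19.8% of the peaks exceeded 300 bp and made up 37.3% of the covered length. Proliferating peaks had a median of 145 bp, a 90th percentile of 187 bp and a longest peak of 3539 bp. Only 332 of them, 0.317%, exceeded 300 bp, and the shortest length was 54 bp. Among peaks of at least 200 bp alone the arrested list was 25.3 times as numerous as the proliferating list.

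**Figure D2:**
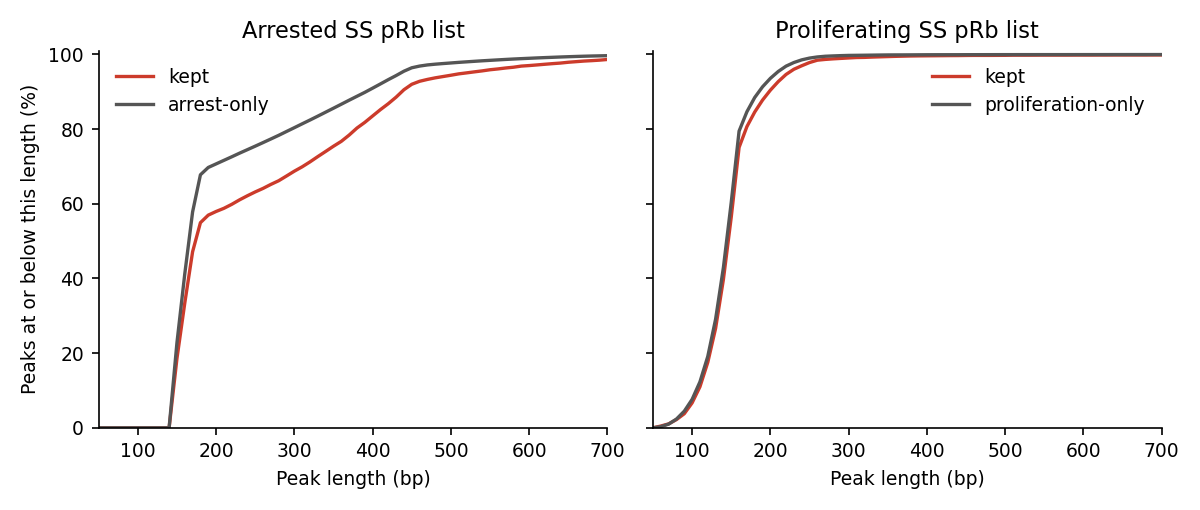
Cumulative share of peaks (percent, vertical axis) at or below a length (bp, horizontal axes, drawn up to 700 bp) for kept and state-only peaks of the arrested (left) and proliferating (right) SS pRb lists. In the arrested list the kept curve runs below the arrest-only curve beyond the shortest peaks, with 31.3% against 19.6% of peaks over 300 bp, and in the proliferating list the curves run close together, with medians of 147 and 145 bp.

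Kept arrested peaks had a longer upper tail than arrest-only peaks. Their median length was 173 bp against 166 bp, their 90th percentile 438 bp against 392 bp, and 31.3% of them exceeded 300 bp against 19.6%. The order of the medians turned with a reciprocal overlap of 50% (ratio of kept to arrest-only 0.970) and when overlap was counted by centres (0.994). The kept share rose with length, from 1.41% of the 148 bp peaks and 1.43% of those of 161 to 200 bp to 2.75% at 401 to 500 bp, 3.64% at 501 to 700 bp and 6.79% above 700 bp (142 of 2091 peaks, 5.79 to 7.95). A longer peak has more room to touch another peak. Counted per length of arrested peak instead, the density of proliferating centres was 1.02 to 1.23 times the genome-wide density in all length classes up to 700 bp, and 1.53 times above 700 bp.

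Kept proliferating peaks were nearly as long as proliferation-only peaks at the median, 147 bp against 145 bp. Differences stood at both ends of the range. Of the 332 peaks over 300 bp 99 were kept (29.8%, 25.2 to 34.9), and of the 160 peaks of 54 bp 33 were kept (20.6%, 15.1 to 27.5). Between these ends the kept share lay between 8.79% for 55 to 100 bp and 16.3% for 251 to 300 bp. The relative density of the centres, which does not depend on the length of the proliferating peak, was 3.45 for 54 bp and 3.43 for over 300 bp, against 1.06 to 1.27 from 55 to 250 bp and 1.64 at 251 to 300 bp. In WT cells 37 of 145 proliferating peaks over 300 bp were kept (25.5%), so in both genotypes the kept share was highest among the long peaks. The WT list held 6 peaks of 54 bp, of which 0 were kept (Wilson upper bound 39.0%), too few to compare.

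The fifth column of each list holds a score whose unit no header states and which is at least 20 in every pRb list. It was used only as a rank within a list, given as a percentile with tied peaks at their mean rank. Ties were common: the 617903 arrested peaks had 18151 distinct scores, of which the commonest, 82.12, belonged to 42095 peaks. The median score was 119.27 in the arrested and 24.3 in the proliferating list, values that were not compared with each other.

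Kept peaks ranked close to the other peaks of their list. In the arrested list the median percentile was 45.2 for kept and 52.0 for arrest-only peaks. In the proliferating list it was 51.6 for kept and 49.9 for proliferation-only peaks. In WT cells the medians were 44.8 and 50.1 in the arrested list and 49.2 and 50.1 in the proliferating list, so kept proliferating peaks ranked higher than the rest in SS and lower in WT cells. Rank and length were related unevenly in the arrested list: the median percentile was 69.1 at 149 to 160 bp, 14.9 at 401 to 500 bp, 32.6 at 501 to 700 bp and 44.0 above 700 bp. The lowest-scoring 10% had a median length of 360 bp against 161 bp in the highest 10%. The kept share was 2.48% in that lowest 10% and 1.62% in the highest. Per length of arrested peak, the density of proliferating centres was 1.19 times the genome-wide density in the lowest 10% and 1.10 times in the highest. At equal list length, or with peaks within 1 kb joined, kept arrested peaks ranked above the arrest-only peaks instead, at 54.1 and 55.1. With a reciprocal overlap of 50% the median was 52.0 for both kept and arrest-only peaks. In the higher-scoring 50% of each list it was 51.6 for both. In the proliferating list the order of the medians turned with a reciprocal overlap of 50% (49.0 for kept peaks) and in the higher-scoring 50% of each list (48.9).

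Rank in one state did not follow rank in the other. Across the 10679 pairs Spearman's rho between the percentiles of the partners was -0.0186, a description over pairs that share 2 libraries. Both partners were at or above the 50th percentile of their list in 2463 pairs (23.1%) and at or above the 90th in 99 pairs (0.927%), and 1 pair had both at or above the 99th. Across steps of 10% of the proliferating list by score the kept share stayed between 9.79% and 10.8%.

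The top of the proliferating list departed from this level. These sets were chosen after their values were seen. Of the 100 proliferating SS peaks of highest score, all at 104.57 or above, 35 were kept (26.4 to 44.7), against 10.2% of the whole list. Their centres lay inside arrested SS peaks in 29 cases (21.0 to 38.5), a relative density of 5.17. The set was made of unusually narrow peaks, with a median length of 54 bp, and 56 of the 100 had exactly that length. Of those 56 peaks 17 were kept, and of the 20 peaks over 100 bp 10 were kept. The kept share then fell to 14.5% in the highest 841 peaks and 15.0% in the highest 1000, and was 24.5% (13 of 53) in the highest 53. The 10 highest peaks were all proliferation-only.

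This top set was compared with the whole proliferating SS list in each of the 9 other lists. By overlap its Wilson interval lay above the whole-list share for arrested SS pRb alone. By centres that held for WT Ezh2 as well, at 8 of 100 (4.11 to 15.0) against 3.73%. With arrested WT pRb 3 of the 100 peaks overlapped, against 6.39% of the whole list, and with proliferating WT pRb 0, against 1.25%. With SS Ezh2 8 overlapped, against 12.9%, and with WT Ezh2 11, against 8.78%, where the relative density of the centres was 2.43. With the H3K27me3 lists 7 to 12 overlapped, against 8.85% to 14.6%. Of the 100 highest proliferating WT pRb peaks 25 overlapped an arrested SS peak (17.5 to 34.3), against 10.2% of the whole WT list. An arrested WT peak was met by 4, against 6.26%, and a proliferating SS pRb peak by 7, against 1.70%. Of the same WT peaks 20 overlapped SS Ezh2, against 13.3%, and 13 WT Ezh2, against 9.18%. Proliferating SS H3K27me3 was met by 24, against 13.9%, and proliferating WT H3K27me3 by 20, against 11.4%. The arrested SS list covered 5.61% of the sequence and the arrested WT list 3.16%. Whether this coverage accounts for the different counts of overlaps with these lists was not tested. The arrested partners of the 35 kept peaks were ordinary for their list, with a median score of 100.21, a median percentile of 41.0 and a median length of 231 bp, and 2 of them were in the highest-scoring 10%. The 100 proliferating peaks lay on 18 of the 19 autosomes. Of the 100 highest arrested SS peaks 4 were kept (1.57 to 9.84), against 1.72% of the whole arrested list, and 2 had their centre in a proliferating SS peak. Of the same peaks 11 overlapped an arrested WT peak, against 7.25% of the whole list, and 8 a proliferating WT peak (4.11 to 15.0), against 1.27%. When an overlap of at least 50% of both peaks was required, 3 of the 100 proliferating peaks were kept, against 3.17% of the whole list. No 54 bp peak can meet that rule, since the shortest arrested peak was 148 bp long. At equal list length 4 of the 100 were kept, against 1.57% of the whole list.

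**Figure D3:**
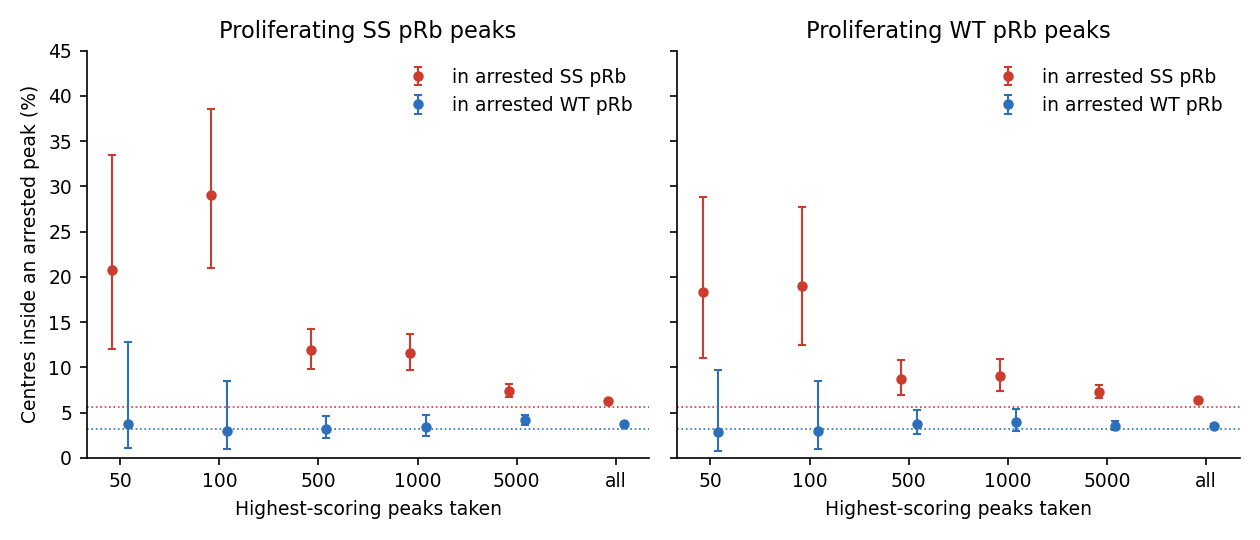
Share of the centres of the highest-scoring proliferating SS (left) and WT (right) pRb peaks that lie inside an arrested SS or arrested WT pRb peak (percent, vertical axis), by the number of highest-scoring peaks taken, ties included (horizontal axes). Bars are Wilson 95% intervals and dotted lines the share of sequence each arrested list covers, 5.61% and 3.16%. At 100 peaks the SS centres lie in arrested SS peaks in 29% and in arrested WT peaks in 3% of cases.

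The 5 highest-scoring peaks of the proliferating list met no peak of the other lists. The highest, chr2:98502361-98503182 in the mm9 build, had a score of 3223.06, and the nearest arrested SS peak was 10248 bp away. The next, chr12:3109860-3110198, had a score of 3222.27 and a gap of 7263 bp. Peaks at chr2:98506336-98507498 and chr9:35112785-35113185 both had a score of 3100, with gaps of 5932 and 9639 bp, and the fifth, chr13:77578100-77578370, had a score of 1254.52 and a gap of 6235 bp. None of these 5 overlapped a peak in any of the other 8 lists. Of all proliferating SS peaks only 1.25% (proliferating WT pRb) to 14.6% (proliferating SS H3K27me3) overlapped any 1 of those lists. The share of all proliferating SS peaks that met none of the 8 was not counted. Each of these gaps exceeds the median gap of 1234 bp for proliferation-only peaks. Whether they arise from binding or from read mapping was not tested.

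The strongest arrest-only peaks had counterparts in WT cells. The peak at chr1:24618280-24623118, 4839 bp long with a score of 3100, and that at chr2:22442711-22445814, 3104 bp long with the same score, overlapped peaks in both WT pRb lists. The peak at chr6:103598955-103599385, also at 3100, overlapped arrested WT pRb and both Ezh2 lists. The peak at chr2:69193407-69194114 (score 2434.8) overlapped arrested WT pRb alone, and that at chr12:98299543-98300098 (score 2177.04) overlapped both WT pRb lists. All 5 thus met an arrested WT peak and 3 a proliferating WT peak. By their class none met a proliferating SS peak.

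Both partners were at or above the 90th percentile of their list in 99 of the 10679 pairs (0.927%). In single lists 962 of 10613 kept arrested and 1129 of 10658 kept proliferating peaks were in the highest-scoring 10%. Whether the 99 pairs are more or fewer than unrelated ranks would give was not tested. The leading pair, on chromosome 5, joined an arrested peak at chr5:60433861-60434405 (545 bp, score 1237.12, percentile 99.999) to a proliferating peak at chr5:60434074-60434322 (249 bp, score 117, percentile 99.9) that lay wholly inside it, and an arrested WT peak was also present there. The next pair by the lower of its percentiles, at chr17:78815657-78815818 in arrested and chr17:78815753-78816015 in proliferating cells, shared 66 bp and had percentiles of 98.6 and 98.97, with no peak in the other 8 lists. The kept arrested peak of second highest score, chr10:95540156-95540617 (score 1218.9), had a proliferating partner at percentile 95.02. The kept peak at chr3:131881274-131881459 (score 834.46) had a partner at percentile 35.3. The partners of the other two among the 5 highest-scoring kept arrested peaks, at chr4:128504318-128504475 and chr4:28054994-28055153, were at percentiles 88.3 and 41.3, so the partners ranged from the middle to the top of their list.

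The highest-scoring kept proliferating peaks were narrow, and the ranks of their arrested partners spread widely. The peaks at chr2:106524510-106524563, chr10:113243675-113243728 and chr12:74338517-74338570 were each 54 bp long with the same score of 211.67. Their arrested partners scored 28.12, 214.95 and 100.21, at percentiles of 2.47, 83.1 and 41.0. The fifth by score, chr3:101792706-101792759 (197.92), had a partner at percentile 87.9 and also met 3 of the 4 H3K27me3 lists.

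The longest kept peaks met between 4 and 7 of the other 8 lists. These counts use overlap of at least 1 bp, and a longer peak has more room to meet another. Neighbouring peak centres lay a median of 1476 bp apart in SS Ezh2 and 2031 bp in WT Ezh2. Whether the counts exceed those of other stretches of equal length was not tested. The arrested peak at chr5:14987334-14990440 was 3107 bp long, ranked at percentile 2.10 of its list, and overlapped peaks in 7 of the other 8 lists. On chromosome 8 the arrested peak at chr8:19731163-19733827 (2665 bp) overlapped 7 of the 8 and met the proliferating peak at chr8:19732659-19734865 (2207 bp), which overlapped 4. The second longest kept arrested peak, of 2816 bp, also overlapped 4. The longest kept proliferating peak, chr8:20032045-20034499 (2455 bp), lay nearby and overlapped 7 of the 8. The longest arrest-only peaks after the first were chr1:85269767-85274044 (4278 bp) and chr5:15041447-15045242 (3796 bp), each in 6 of the 8 other lists at low score ranks, percentiles 14.0 and 11.2. The longest proliferation-only peak, chr11:3090843-3094381 (3539 bp), overlapped both Ezh2 lists, and the third longest, chr6:47699889-47701085 (1197 bp), lay 30721 bp from the nearest arrested peak. Genes and repeats at these places were not analysed here.

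Kept peaks coincided slightly more often with the other marks than the rest of their list, by the share of centres inside a peak of the other list. Kept proliferating peaks lay in proliferating SS H3K27me3 peaks in 15.3% of cases (14.6 to 16.0) and proliferation-only peaks in 13.3% (13.06 to 13.49), where that mark covered 11.8% of the sequence. For arrested SS H3K27me3 the shares were 8.05% and 7.35%, for SS Ezh2 6.56% and 5.56%, and for WT Ezh2 4.68% and 3.62%. For arrested WT pRb they were 4.11% and 3.70%. The arrested list gave the same order: 15.0% of kept and 12.8% of arrest-only peaks lay in proliferating SS H3K27me3, 6.22% and 5.69% in SS Ezh2, and 4.03% and 3.46% in arrested WT pRb.

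The Ezh2 difference was widest for long peaks. Of the 99 kept proliferating peaks over 300 bp 23 had their centre in an SS Ezh2 peak (23.2%, 16.0 to 32.5), against 30 of 233 proliferation-only peaks of that length (12.9%, 9.17 to 17.8). In WT Ezh2 the shares were 25.3% (17.7 to 34.6) and 12.0% (8.45 to 16.8). For H3K27me3 the order of these long peaks varied. Kept shares were lower in proliferating WT (19.2% against 24.9%) and arrested SS H3K27me3 (7.07% against 8.58%). They were higher in proliferating SS (26.3% against 25.3%) and arrested WT H3K27me3 (16.2% against 14.2%). Among arrested peaks over 300 bp the SS Ezh2 shares were 6.81% for kept and 5.35% for arrest-only. Among those up to 200 bp they were 5.89% and 5.77%, and in WT Ezh2 3.67% and 3.78%, so by Ezh2 the short arrested peaks did not separate. In H3K27me3 the kept share of these short peaks was higher. It was 15.0% (14.2 to 15.9) against 13.0% (12.9 to 13.1) in proliferating SS and 12.1% against 10.8% in proliferating WT cells. In arrested SS cells it was 8.23% against 7.38%. In arrested WT cells it was 9.01% (8.32 to 9.75) against 8.38% (8.30 to 8.46), where the intervals overlap.

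All autosomes carried both lists in nearly even density. Arrested peaks lay between 247.6 per Mb on chromosome 12 and 263.7 per Mb on chromosome 9. Proliferating peaks varied more, from 39.0 per Mb on chromosome 14 to 49.97 per Mb on chromosome 19. The ratio of arrested to proliferating peaks therefore ran from 5.20 on chromosome 19 to 6.41 on chromosome 14. The kept share of proliferating peaks stayed between 9.53% on chromosome 12 and 10.6% on chromosomes 8 and 14, and that of arrested peaks between 1.58% on chromosome 12 and 1.89% on chromosome 5.

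**Figure D4:**
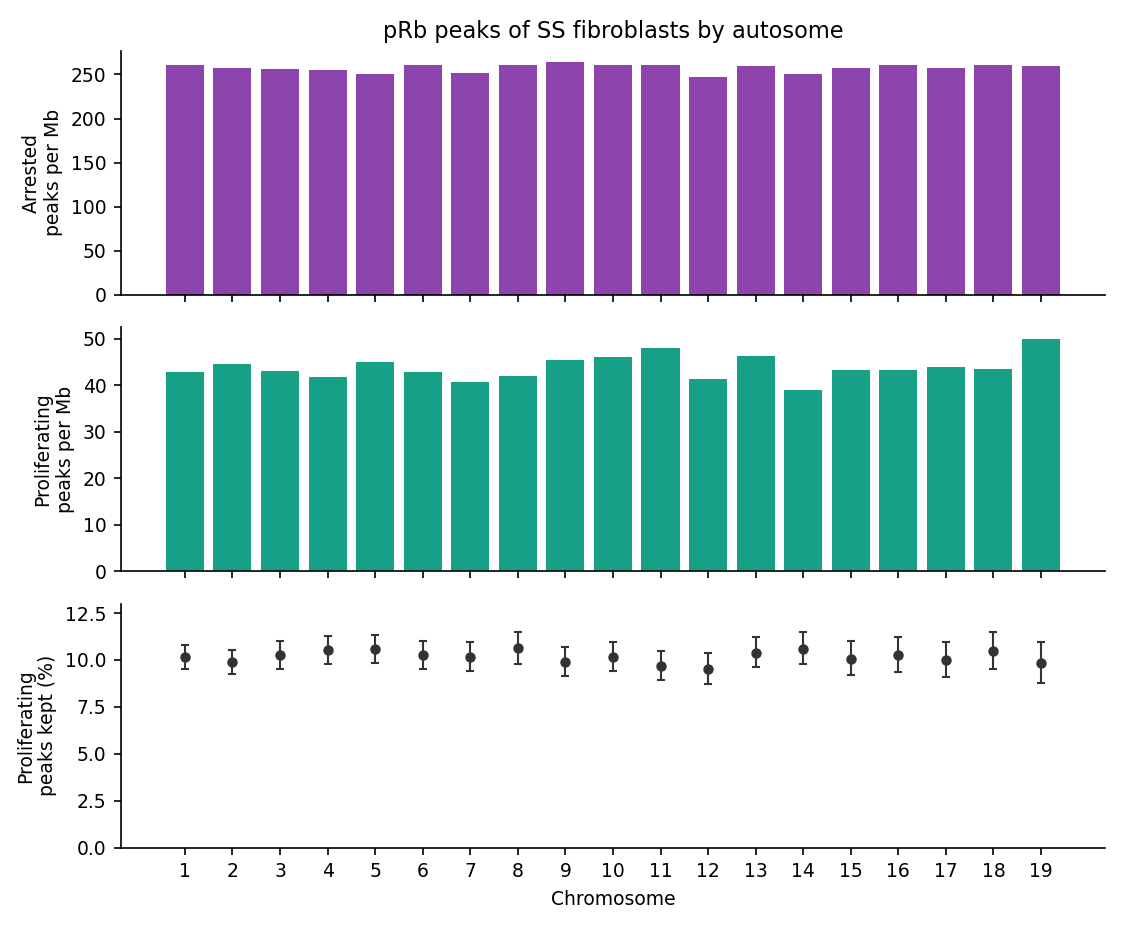
Arrested (top) and proliferating (middle) SS pRb peaks per Mb and the share of proliferating peaks kept (bottom, percent, with Wilson 95% intervals as bars) for each of the 19 autosomes (horizontal axis). Arrested density stays between 247.6 and 263.7 per Mb, proliferating density between 39.0 and 49.97 per Mb, and the kept share between 9.53% and 10.6%.

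Along the chromosomes the kept share was highest in the first stretch of assembled sequence, at the centromeric end of the acrocentric mouse chromosomes. In mm9 the sequence of each mouse autosome begins about 3 Mb from the chromosome start. From 3 to 4 Mb 114 of 854 proliferating peaks were kept (13.3%, 11.2 to 15.8), and 2.38% of the arrested peaks (1.98 to 2.86). In the other stretches measured from the start the proliferating kept share was between 9.96% and 11.0%, and in the last 1 Mb before the final peak it was 10.2%. From 4 to 5 Mb the kept shares were 11.0% of proliferating (9.03 to 13.3) and 1.82% of arrested peaks (1.48 to 2.23). These intervals overlap those of the first stretch. Peak density in the first stretch, 249.7 arrested and 44.9 proliferating peaks per Mb, was close to that elsewhere. The length that arrested peaks covered in each stretch was not measured.

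At the scale of 100 kb the lists did not rise and fall together. Over 24020 autosomal bins Spearman's rho between the covered shares of the arrested and proliferating SS lists was -0.0187, a description over bins, which are not replicates and share library depth and base composition. Between SS and WT pRb lists of the same state rho was 0.0444 for arrested and 0.135 for proliferating cells. Proliferating SS pRb and arrested WT pRb gave 0.143. For comparison rho was 0.198 between proliferating SS pRb and proliferating SS H3K27me3 and 0.217 between arrested SS pRb and SS Ezh2. Proliferating SS pRb and SS Ezh2 gave -0.165. Each covered share was then divided by the list's mean, giving a relative covered share with a mean of 1. The arrested list was even, with 5th and 95th percentiles of 0.649 and 1.38, and the sparser proliferating list ranged from 0.207 to 2.02. The arrested relative share was at least 2 times the proliferating one in 4790 bins (19.9%) and the reverse held in 2069 bins (8.61%). At 43.6 proliferating peaks per Mb a bin held few of them, so the value of a single bin has a large counting error.

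A small set of bins was dense in both states. The limit of 2 was chosen after the values were seen. In 65 bins, 0.271% of all, the arrested relative share was at least 2, and in 38 of these the proliferating share also was, whereas 5.21% of all bins reached that level in the proliferating list. The same 65 bins reached it in proliferating WT pRb in 53 cases, in arrested WT pRb in 44, in SS Ezh2 in 35 and in WT Ezh2 in 39, against 6.22%, 0.35%, 0.212% and 0.275% of all bins. Most of these bins were therefore also dense in lists of other genotypes or antibodies. The 1% of bins with the most sequence in peaks of the 4 pRb lists together, 240 bins, held 1672 proliferating peaks of which 375 were kept (22.4%, 20.5 to 24.5), against 9.98% elsewhere. Those bins were selected on coverage by the same lists, and more arrested coverage leaves less room for a peak to miss it, so a higher kept share there was built into the choice.

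**Figure D5:**
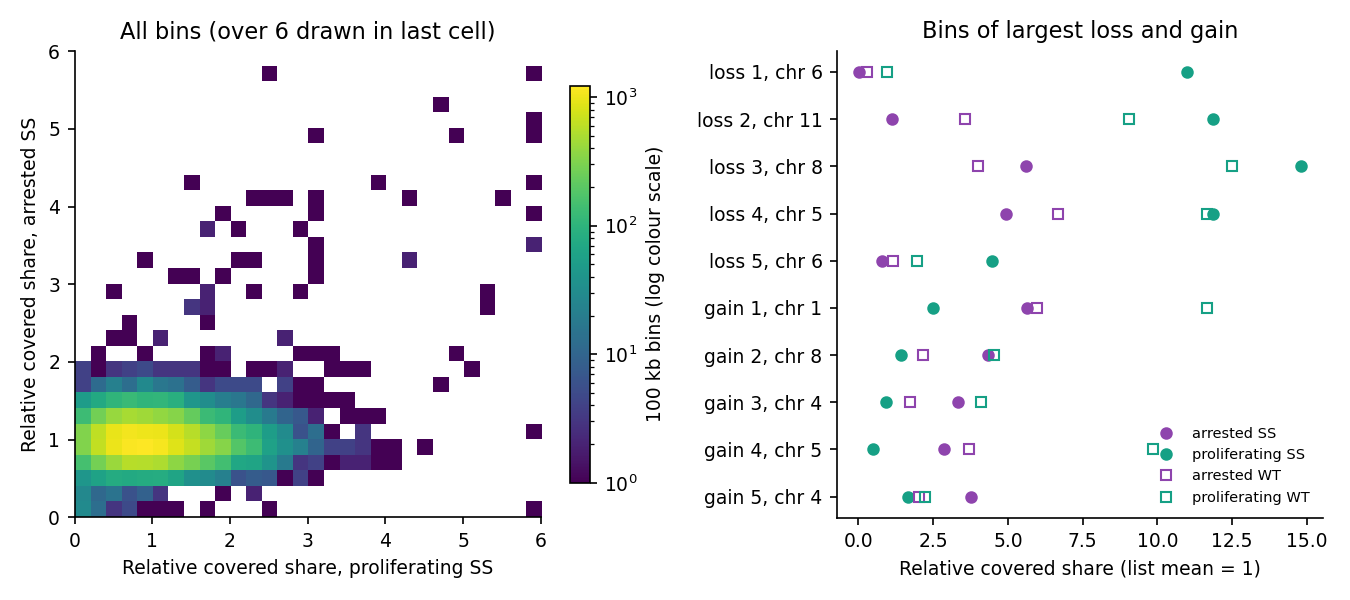
Left, number of 100 kb autosomal bins (log colour scale) by relative covered share in the proliferating (horizontal axis) and arrested (vertical axis) SS pRb lists, list mean of 1, with values over 6 drawn in the last cell. Right, relative covered share (horizontal axis) of the 5 bins of largest loss and the 5 of largest gain in arrested against proliferating SS cells, with WT values as open squares. Most of the 24020 bins form a cloud around 1 with no trend, and in the 5 gain bins the arrested SS share exceeds the proliferating SS share while the WT order is opposite.

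The bins with the largest loss of relative share in arrested cells were of more than 1 kind. On chromosome 6 the bin at 47600001-47700000 held 11 proliferating peaks that covered 6.99% of it and 1 arrested peak that covered 0.164%, and 0 of the 11 were kept. In WT cells the same bin was covered to 0.453% in proliferating and 0.960% in arrested cells. It had no Ezh2 peak in SS cells, and proliferating SS H3K27me3 covered 36.0% of it. The next bin, at 47700001-47800000, was also among the 5 largest losses. The bins on chromosome 11 at 3000001-3100000, chromosome 8 at 19700001-19800000 and chromosome 5 at 14900001-15000000 had proliferating relative shares of 11.9, 14.8 and 11.9 and arrested ones of 1.13, 5.62 and 4.94, so that those on chromosomes 8 and 5 were dense in both states. In the chromosome 8 bin 9 of 16 proliferating peaks were kept. In WT cells the relative share of these 5 bins was also lower in the arrested list.

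The bins with the largest gain were covered broadly in arrested SS cells, and above the list mean in arrested WT cells too. The bin on chromosome 1 at 85200001-85300000 was covered to 31.6% by 34 arrested and to 1.59% by 4 proliferating peaks, relative shares of 5.62 and 2.49. That on chromosome 8 at 74300001-74400000 had 56 arrested peaks over 24.3% and 7 proliferating peaks over 0.912%. On chromosome 4 the bins at 146400001-146500000 and 145000001-145100000 were covered to 18.7% and 21.2% by arrested and 0.589% and 1.07% by proliferating peaks. On chromosome 5 the bin at 15000001-15100000 was covered to 16.0% and 0.311%, directly beside a bin of large loss. Across the 5 bins the arrested relative share was 2.85 to 5.62 in SS and 1.73 to 5.98 in WT cells. The proliferating relative share was 0.488 to 2.49 in SS, from 1 to 7 peaks per bin, and 2.23 to 11.7 in WT cells. In WT cells all 5 of these bins had a lower relative share in arrested than in proliferating cells, and the difference between genotypes was not tested.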

How the data were processed

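Peak lists from single libraries of mouse embryonic fibroblasts were analysed. The deposited pRb lists hold a position and a score per peak, as the authors gave them. The unit of the score is not stated in any header, and it served only to rank peaks within a list. The submitters' processing notes name Bowtie2, MACS2, HOMER, bedtools and the mm9 build, with no version or role. Each library has a list of its own. How peaks were called and against which control is not given in the sources used here, and input libraries were not used here. The lists give no reads, so depth is unknown. Positions are mm9, counted from 1. The reference tables belong to another assembly, so no gene, repeat or sequence was assigned to a peak.

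Peaks sharing at least 1 bp counted as overlapping. Centres, which do not depend on length, were counted inside peaks of other lists and compared with the covered share of 24020 bins of 100 kb, those in which a list had a peak. Shares have Wilson 95% intervals. Named were, in each class, the 5 peaks of highest score and the 3 longest, the 5 kept pairs with the highest lower percentile, and the 5 bins of largest gain and loss, and the text gives most of these. The members, lists and rules were chosen with earlier results of these data known. No test across samples was possible with 1 library in each group. The overlap computation was checked on simulated peaks. Alternatives were a reciprocal overlap of 50%, centre overlap, the higher-scoring 50% of each list, equal list lengths, joining peaks within 1 kb, peaks of at least 200 bp, leaving out the densest 1% of bins and leaving out each autosome. Computation used pandas 2.3.3 and numpy 2.4.6 under Python 3.11.15, with figures from matplotlib 3.10.9.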

Additional observations from a re-analysis of the deposited data

Results flagged for a closer look

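Kept proliferating SS peaks ranked higher than proliferation-only peaks, by 1.67 points of median score percentile, whereas in WT cells the difference was -0.838. The SS order itself turned with a reciprocal overlap of 50% (49.0 for kept against 49.9 for the rest) and in the higher-scoring 50% of each list (48.9 against 50.1). The directions were opposite, and the difference between genotypes was not tested.

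In 5 bins the relative covered share was higher in arrested than in proliferating SS cells and lower in arrested than in proliferating WT cells. The SS difference was 3.13 on chromosome 1 at 85200001-85300000 (WT -5.69), 2.89 on chromosome 8 at 74300001-74400000 (WT -2.39) and 2.41 on chromosome 4 at 146400001-146500000 (WT -2.37). It was 2.36 on chromosome 5 at 15000001-15100000 (WT -6.12) and 2.10 on chromosome 4 at 145000001-145100000 (WT -0.196). The arrested WT relative share was also above the list mean in these bins, at 1.73 to 5.98, and the proliferating SS shares rest on 1 to 7 peaks per bin. These bins were selected for their SS difference, and the difference between genotypes was not tested.

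Peaks outside the autosomes were not part of the comparisons. On the Y chromosome the arrested SS list held 202 peaks and the proliferating SS list 64, of which 16 were kept (25.0%, 16.0 to 36.8). On X there were 32278 arrested and 1680 proliferating peaks, a ratio of 19.2 against 5.90 on the autosomes, and 182 of the 1680 were kept (10.8%). The arrested and proliferating WT lists held 22883 and 1199 X peaks.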

How the results depend on the processing

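Most values depended on what counted as a shared peak. The kept share was 0.537% of arrested and 3.17% of proliferating peaks with a reciprocal overlap of 50%, 0.699% and 6.24% by centres, and 0.791% and 4.71% in the higher-scoring 50% of each list. It was 1.57% in both lists at equal list length, 2.74% and 13.2% with peaks within 1 kb joined, 0.266% and 6.68% for peaks of at least 200 bp, and 1.68% and 9.98% without the densest 1% of bins. The ratio of arrested to proliferating peaks was 25.3 for peaks of at least 200 bp and 5.88 to 5.93 with each autosome left out. The covered length ratio was 38.5 for peaks of at least 200 bp, 1.27 at equal list length and 8.76 to 8.86 with each autosome left out. The median length of kept over arrest-only peaks, 1.04 in the report, fell below 1 with reciprocal overlap (0.970) and by centres (0.994), and was 3.27 for joined peaks. The median percentile of kept arrested peaks, 45.2 in the report, was 52.0 with reciprocal overlap, 48.5 by centres, 51.6 in the higher-scoring 50% and 46.9 for peaks of at least 200 bp. It exceeded that of arrest-only peaks at equal list length (54.1) and for joined peaks (55.1). With reciprocal overlap and in the higher-scoring 50%, kept and arrest-only peaks had the same median. The median percentile of kept proliferating peaks fell below that of proliferation-only peaks with reciprocal overlap (49.0) and in the higher-scoring 50% (48.9), and was 52.2 for joined peaks. Spearman's rho over bins was -0.0336 at equal list length, -0.00201 for joined peaks and -0.0332 without the densest bins. The causes of these changes were not tested. With settings chosen after the data were seen, the kept number among the top 100 proliferating peaks was 3 with reciprocal overlap, 14 against the higher-scoring 50%, 4 at equal list length, 36 with joined peaks and 29 by centres, and 27.9% without 54 bp peaks. No paired analysis was possible because each group had 1 library, and no replicate could be left out. Unknown depth limits every comparison of list size.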
